A study of Mus musculus with 2 samples.

Results

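The genes described here encode mechanosensitive proteins of the myofiber: the muscle ankyrin repeat proteins Ankrd1, Ankrd2 and Ankrd23, the LIM domain proteins Csrp3, Fhl1 and Fhl3, and the Xin actin-binding repeat proteins Xirp1 and Xirp2. The 8 genes were taken as a list by name, and 7 of them were found among the 35159 genes of the table; Xirp1 was not analysed here. They were followed in individual muscle fibers (myofibers) from the FDB, the flexor digitorum brevis, which is a small foot muscle made mostly of fast fibers, in untreated adult mice over 3 months of age. The labels of both samples give the strain as C57BL/6J, while the study's methods name male mice of the C57BL/6J and DBA2 backgrounds without assigning cells to them. The muscle was digested with collagenase, and intact myofibers or cut fragments were placed 1 to a well and sequenced by mcSCRB-seq, in which RNA molecules are tagged with unique molecular identifiers (UMIs) so that amplified copies are counted once. The libraries carried 8 indices on 2 sequencing lanes. Each index was taken to mark 1 plate and is called a plate below, although the sample labels name only the lanes. Each lane held its own plates and cells, so a difference between lanes cannot be told apart from one between plates. As the labels name no separate animals, all cells were treated as 1 biological sample, and cells were not used as replicates for a p-value.

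Of 763 sequenced cells, 171 were kept because they had counts for more than 5000 genes and a mitochondrial share of counts below 20%, among them 168 whole myofibers and 3 fragments. By the myosin heavy chain gene with the most counts among Myh1, Myh2, Myh4, Myh7 and Myh8, 117 of these were fast 2X (Myh1), 51 fast 2A (Myh2), 2 slow (Myh7) and 1 fast 2B (Myh4). The median depth was 255674 counts in fast 2X cells and 206474 in fast 2A cells, with a range over all kept cells from 28825 to 1542707. The 5 myofiber markers (Ttn, Acta1, Ckm, Mylpf and Neb) summed to 118603 CPM, which is 1000000 times the share of a cell's or group's counts, in fast 2X and 127424 CPM in fast 2A cells. The 7 marker lists of other cell types of the muscle summed to between 12.2 and 87.3 CPM in either class, although none of their genes was at 0.

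Muscle ankyrin repeat proteins bind the elastic N2A region of titin and also enter the nucleus, which places them between stretch and transcription. Csrp3, or muscle LIM protein, sits at the Z-disc, Fhl1 binds titin and takes part in hypertrophic signalling, and Fhl3 is a related four-and-a-half-LIM protein that binds actin. The Xin proteins bind and stabilise actin filaments at the myotendinous junction and at sites of damage. In rodent muscle, Ankrd1 and Xirp1 are known to rise after injury or eccentric contraction, and Ankrd2 and Csrp3 are known to be higher in slow than in fast muscle.

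On GRCm38, the build to which the authors mapped, Ankrd1 lies on chromosome 19 from 36111961 to 36120099 (minus strand) and Ankrd2 on the same chromosome from 42036000 to 42045110 (plus strand). Ankrd23 is on chromosome 1 from 36530188 to 36536883 (minus), Csrp3 on chromosome 7 from 48830398 to 48848033 (minus), Fhl1 on chromosome X from 56731787 to 56793346 (plus), Fhl3 on chromosome 4 from 124700701 to 124708611 (plus) and Xirp2 on chromosome 2 from 67446002 to 67526614 (plus). All are protein-coding genes in GENCODE M21. Ankrd23 overlaps Gm42417, a protein-coding model on the same strand that extends beyond it, and Xirp2 holds the antisense gene Gm13601 within its span, so that reads of these pairs may not be separable in the counts. Xirp1, on chromosome 9 from 120013755 to 120023598 (minus), lies wholly inside the span of Cx3cr1 on the same strand (119901616 to 120069879), in an intron, as 0 of its 5839 exonic bases are shared with an exon of Cx3cr1.

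The stretches before the RefSeq transcription start (GRCm38.p6) are shown for the 4 members that were higher in fast 2A than in fast 2X cells, and short stretches for Ankrd1, which was not. They cover chr19:42035777-42035999 for Ankrd2, chr7:48848052-48848301 for Csrp3, chr2:67445752-67446001 for Xirp2 and chrX:56779524-56779682 for Fhl1, each up to 250 bases before a start and cut where an annotated exon begins, written 5′ to 3′ on the strand of the gene. The stretches for Ankrd1, chr19:36120039-36120064 and chr19:36119952-36119977, are on the minus strand. Every base of the Ankrd1 window lay within an annotated exon, so these 2 stretches are shown without that cut. Capitals mark the motifs searched on both strands, namely the MCAT site bound by TEAD factors (CATTCC, or GGAATG on the other strand), the E-box of myogenic factors (CANNTG), the CArG box of SRF and the MEF2 site.
Ankrd2: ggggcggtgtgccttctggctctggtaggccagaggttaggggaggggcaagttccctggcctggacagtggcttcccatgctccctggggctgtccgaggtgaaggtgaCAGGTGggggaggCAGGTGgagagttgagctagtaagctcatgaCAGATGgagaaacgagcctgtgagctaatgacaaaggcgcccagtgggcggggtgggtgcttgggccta
Csrp3: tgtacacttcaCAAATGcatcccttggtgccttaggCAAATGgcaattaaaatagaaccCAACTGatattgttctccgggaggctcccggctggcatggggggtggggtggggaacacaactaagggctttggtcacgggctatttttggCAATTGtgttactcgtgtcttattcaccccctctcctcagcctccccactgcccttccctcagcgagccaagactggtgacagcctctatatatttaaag
Xirp2: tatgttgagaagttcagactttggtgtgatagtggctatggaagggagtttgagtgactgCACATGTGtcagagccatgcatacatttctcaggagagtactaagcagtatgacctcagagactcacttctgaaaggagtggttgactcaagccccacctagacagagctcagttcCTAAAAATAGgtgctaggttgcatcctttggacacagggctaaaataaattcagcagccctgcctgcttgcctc
Fhl1: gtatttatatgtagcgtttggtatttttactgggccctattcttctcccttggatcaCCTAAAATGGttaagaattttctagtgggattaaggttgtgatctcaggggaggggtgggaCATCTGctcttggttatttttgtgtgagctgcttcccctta
Ankrd1, distal site: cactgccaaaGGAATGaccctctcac
Ankrd1, proximal site: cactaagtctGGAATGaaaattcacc

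RefSeq gave 10 such windows for 7 members. The 250 bases before the RefSeq start of Ankrd1 held 2 MCAT matches, at 210 to 205 and 123 to 118 bases before that start. In GENCODE these bases lie within an annotated exon, so they are not upstream of every annotated start. Of the Ankrd23 windows, 1 held 1 match. Among all 32851 promoter windows of that length, 12.6% held at least 1. Fhl1 had a CArG match at 102 to 93 bases before the start in the window shown, against 1.5% of all windows, and Xirp2 a MEF2 match at 74 to 65 bases, against 2.9%. The E-box was found in 8 of the 10 windows and in 66.2% of all windows, and the first 2 E-boxes of Xirp2 overlap each other. The windows of Ankrd2 and Csrp3, with 3 and 4 E-boxes, held none of the other 3 motifs. A match says only that the letters are present.

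The first question was whether the members differ between the fast fiber classes. Ankrd2 was 3.91 times as high in fast 2A as in fast 2X cells, and Csrp3, Xirp2 and Fhl1 were higher by log2 ratios of 0.83, 0.68 and 0.61. Ankrd23 and Fhl3 had nearly equal levels in both, and Ankrd1 was lower in fast 2A cells in the summed counts but not on every plate. Thus, with a log2 ratio of at least 0.5 in size as the criterion, 4 of 7 members were higher and 1 was lower in fast 2A cells, whereas 3.82% of the 8741 genes with at least 500 summed counts were higher and 10.7% were lower. The members had a median log2 ratio of 0.61 and all genes one of -0.09. All limits given below are 95% limits of the counts alone (exact Poisson for levels, exact conditional binomial for ratios), and they do not cover the spread between cells or animals.

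**Figure D1:**
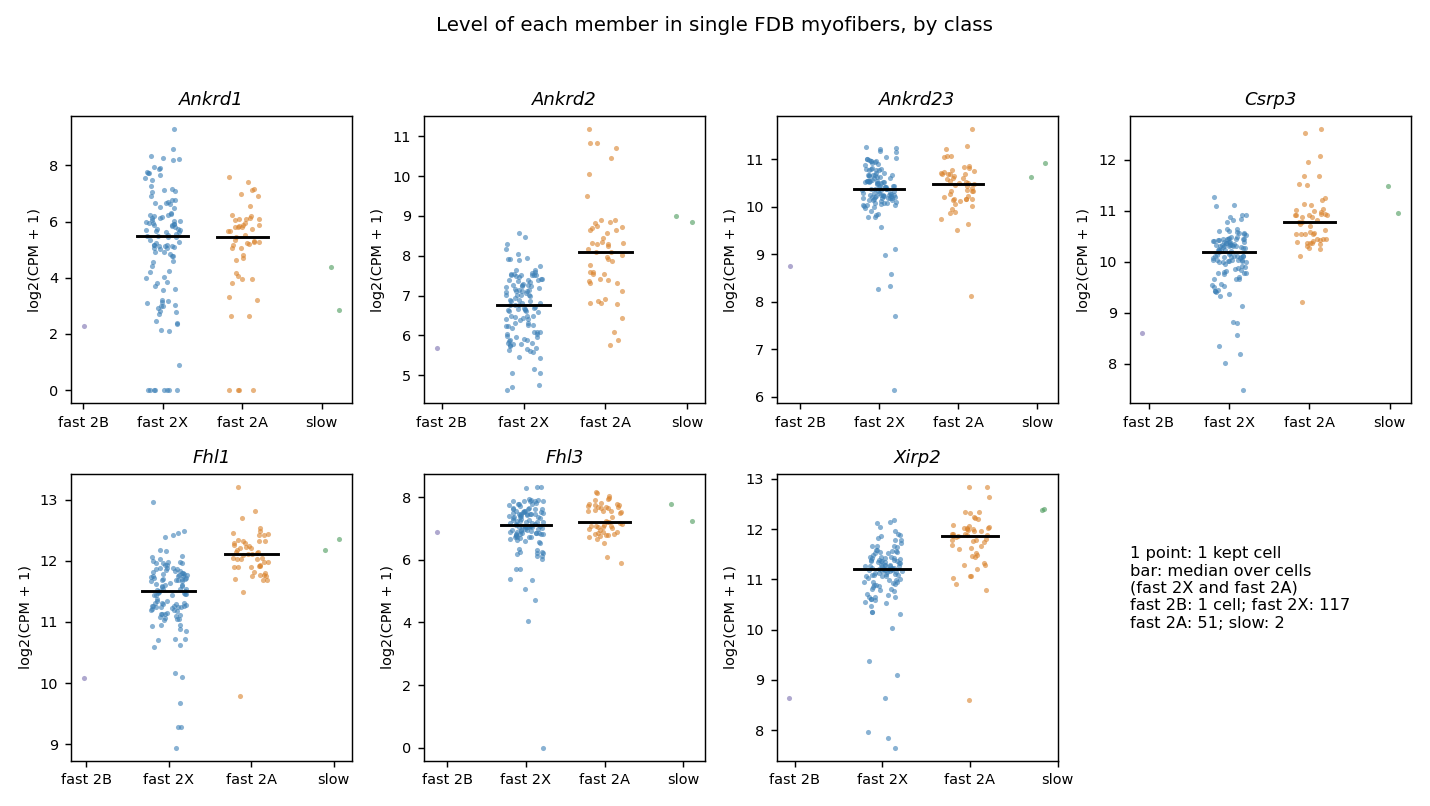
Level of each member in single kept cells, as log2(CPM + 1) on the vertical axis, by fiber class on the horizontal axis; 1 point is 1 cell, and the bar is the median over the cells of the 2 large classes. Of the 51 fast 2A cells, 47 lay above the fast 2X median for Ankrd2 and 25 for Ankrd1.

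Ankrd2 ranged from 23.7 to 382 CPM over fast 2X cells, with a median of 108 CPM, and from 52.7 to 2327 CPM over fast 2A cells, with a median of 274 CPM. The classes overlapped, but 47 of 51 fast 2A cells were above the fast 2X median and 16 were above the highest fast 2X cell. Summed over cells, Ankrd2 reached 118 CPM (limits 114 to 121) in fast 2X and 460 CPM (447 to 472) in fast 2A, a log2 ratio of 1.97 (1.91 to 2.02). Only 0.160% of the genes tested had a higher ratio. The 5 fast 2A cells with the most Ankrd2 counts held 49.7% of all its counts in the class. The ratio of the medians over cells was lower, at 1.34 on the log2 scale.

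Csrp3 ranged from 178 to 2479 CPM in fast 2X cells (median 1171) and from 591 to 6227 CPM in fast 2A cells (median 1760). Its summed level was 1133 CPM (limits 1122 to 1143) in fast 2X and 2007 CPM (1982 to 2033) in fast 2A, and 49 of the 51 fast 2A cells lay above the fast 2X median. Fhl1 ranged from 490 to 7933 CPM in fast 2X cells (median 2905) and from 886 to 9504 CPM in fast 2A cells (median 4401). Its summed level was 2959 CPM (2942 to 2976) and 4513 CPM (4475 to 4551), again with 49 fast 2A cells above the fast 2X median. The distributions of both LIM proteins were thus shifted as a whole, with only 8 and 7 of 117 fast 2X cells above the fast 2A median.

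Xirp2, whose protein cross-links actin filaments, ranged from 199 to 4639 CPM in fast 2X cells (median 2363) and from 388 to 7376 CPM in fast 2A cells (median 3732). Its summed level was 2453 CPM (limits 2437 to 2468) in fast 2X and 3940 CPM (3904 to 3976) in fast 2A. Here 45 of 51 fast 2A cells were above the fast 2X median and 9 were above the highest fast 2X cell.

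Ankrd23 and Fhl3 showed no such shift. Ankrd23 had 1361 CPM in either class (limits 1349 to 1372 in fast 2X and 1340 to 1382 in fast 2A), with medians over cells of 1328 and 1429 CPM. Fhl3 had 154 CPM (150 to 158) in fast 2X and 161 CPM (154 to 168) in fast 2A, a log2 ratio of 0.06 (-0.01 to 0.14). For each of these genes 29 of the 51 fast 2A cells were above the fast 2X median.

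Ankrd1 was uneven within both classes. It ranged from 0 to 629 CPM over fast 2X cells, with a median of 44.1 CPM and quartiles of 13.4 and 78.2 CPM, and from 0 to 192 CPM over fast 2A cells, with a median of 42.6 CPM. Summed, it had 73.2 CPM (limits 70.6 to 76.0) in fast 2X and 49.8 CPM (45.9 to 54.0) in fast 2A, a log2 ratio of -0.56 (-0.69 to -0.43), but 25 of the 51 fast 2A cells lay above the fast 2X median. The 5 fast 2X cells with the most Ankrd1 counts held 30.7% of all its counts in the class, and the ratio of the medians over cells was -0.05 on the log2 scale. No Ankrd1 count was found in 8 of 117 fast 2X and 4 of 51 fast 2A cells. At a median of 10 and 8 counts per cell in these classes, such a cell cannot be told from one with a low level.

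The comparison was repeated within lanes and within the 7 plates that held at least 3 cells of each class. Ankrd2, Csrp3, Fhl1 and Xirp2 were higher in fast 2A cells on 7 of 7 plates, with log2 ratios from 1.07 to 2.19 for Ankrd2, 0.61 to 1.01 for Csrp3, 0.48 to 0.97 for Fhl1 and 0.35 to 1.02 for Xirp2. By lane, the ratios were 2.09 and 1.79 for Ankrd2, 0.74 and 0.87 for Csrp3, 0.60 and 0.63 for Fhl1, and 0.57 and 0.77 for Xirp2. For these 4 genes the direction was thus the same on each of the 7 plates and on both lanes. The plates and lanes are parts of the cells in which the 4 genes were found higher. The same count was not made over all genes. Ankrd1 was lower by 0.96 on lane 1 and 0.14 on lane 2, and its ratio over plates ran from -1.56 to 1.04 with 3 of 7 above 0. The lower level of Ankrd1 in fast 2A cells thus did not hold on every plate. With a plate left out, its ratio over the remaining cells stayed below 0, between -0.72 and -0.35.

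**Figure D2:**
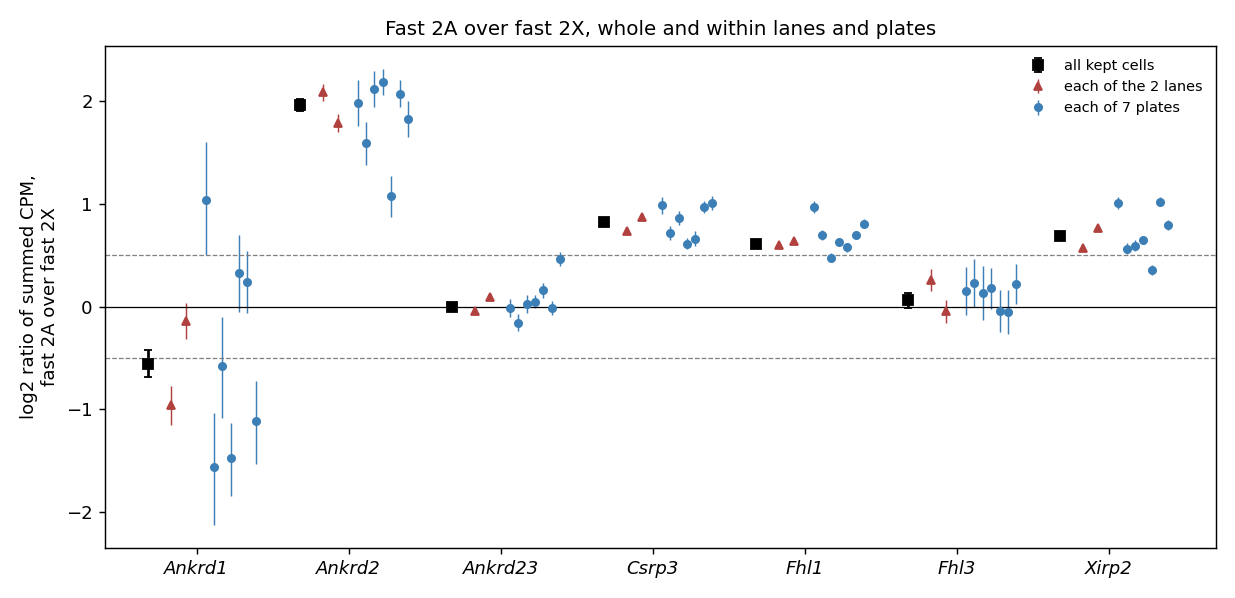
Log2 ratio of summed CPM, fast 2A over fast 2X, on the vertical axis for each member on the horizontal axis; squares are all kept cells, triangles the 2 lanes and circles the 7 plates, bars are 95% counting limits, and dashed lines mark a log2 ratio of 0.5 in either direction. The circles of Ankrd2, Csrp3, Fhl1 and Xirp2 all lie above 0, and those of Ankrd1 run from -1.56 to 1.04.

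The highest Ankrd2 cells were fast 2A cells that also carried Myh7, the slow myosin heavy chain. In the 7 fast 2A cells with the most Ankrd2, from 722 to 2327 CPM, Myh7 made up between 1.55% and 43.2% of the counts of the 5 Myh genes, and it was 8.90% or more in the upper 6, against a median of 1.02% over all fast 2A cells. These 7 cells were whole myofibers, 5 on lane 1 and 2 on lane 2, and they had 2929 to 6227 CPM of Csrp3 and 4401 to 9504 CPM of Fhl1. Their 8 other slow programme genes summed to between 12589 and 28590 CPM, above the upper quartile of the class of 11701 CPM. They were chosen for their Ankrd2 level, so that these values are a description.

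With a limit of 5% Myh7, set after the values had been seen, 11 fast 2A cells were at or over it and 40 were under it. Ankrd2 had 1094 CPM (limits 1056 to 1134) in the 11 cells and 266 CPM (256 to 277) in the 40, or log2 ratios over fast 2X of 3.22 and 1.18. Csrp3 followed the same order, with 3115 and 1669 CPM (log2 ratios of 1.46 and 0.56), as did Xirp2, with 4842 and 3665 CPM (0.98 and 0.58), and Fhl1, with 5239 and 4292 CPM (0.82 and 0.54). All 4 genes were also past the criterion in the fast 2A cells with little Myh7, although Ankrd2 by much less than in the 11 cells. The share of all genes past it was not computed for this split, so these are values only. Ankrd1 ran the other way, with 29.9 CPM (23.8 to 37.0) in the 11 cells and 55.9 CPM (51.1 to 60.9) in the 40. Not all 11 cells were high, since Ankrd2 ranged among them from 111 to 2327 CPM.

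The 2 slow cells and the 1 fast 2B cell are given as single values. In the slow cells, Ankrd2 was 508 and 457 CPM, Csrp3 2874 and 1998 CPM, Fhl1 5262 and 4632 CPM, and Xirp2 5396 and 5357 CPM. The fast 2B cell had 50.6 CPM of Ankrd2, 385 CPM of Csrp3, 1086 CPM of Fhl1 and 397 CPM of Xirp2, from 256959 counts in all. Ankrd1 had 6.27 and 19.9 CPM in the slow cells, from 3 and 2 counts, and 3.89 CPM in the fast 2B cell, from 1 count. With so few cells no comparison of classes was made on them.

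Within the fast 2X class, Myh2 counts made up a variable part of Myh1 plus Myh2, which allowed the members to be followed along the share of Myh2 without the class boundary. Csrp3 and Fhl1 had a Spearman rho with this share of 0.35 and 0.30 over the 117 cells, which ranked 22 and 39 among the 8741 genes, where the median was -0.07. Xirp2 had 0.17, Ankrd2 0.16, Ankrd1 0.02, Ankrd23 -0.14 and Fhl3 -0.22. No member reached 0.5, a value that 0.0572% of genes reached. The points share libraries and depth, and the share itself came from the same counts. The genes ranked were not matched for count level.

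Fhl1 rose mostly at the upper end of the share, with 2846 CPM (limits 2823 to 2868) in the 48 cells under 20% Myh2, 2915 CPM (2885 to 2946) in the 48 cells from 20% to 35% and 3522 CPM (3471 to 3572) in the 21 cells from 35%. Csrp3 had 1086, 1175 and 1231 CPM in the same bins. The median depth fell over the bins, from 329999 to 191647 and 165717 counts per cell, and its part in these values was not tested. In fast 2A cells the rho with the Myh2 share was 0.51 for Csrp3, 0.50 for Xirp2, 0.48 for Fhl1 and 0.35 for Ankrd2, ranks 9, 10, 14 and 73, and -0.35 for Ankrd1.

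The members also differed in how evenly they were expressed among cells of a class. After the counting error expected at each depth was taken out, the remaining coefficient of variation in fast 2X cells was 31.6% for Ankrd23, 33.1% for Csrp3, 34.8% for Xirp2, 35.5% for Fhl3 and 35.9% for Fhl1. Ankrd2 followed at 50.3% and Ankrd1 at 124%, and the median over all genes was 72.4%. In fast 2A cells it was 116% for Ankrd2 and 52.8% for Csrp3, but 76.6% for Ankrd1. Hence Ankrd1 was the most variable member in fast 2X cells and Ankrd2 in fast 2A cells, while Ankrd23, Fhl1, Fhl3 and Xirp2 were even in both, at 26.7% to 35.9%.

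A second question was whether the members go up and down together between cells of 1 class. Over the 117 fast 2X cells, 19 of the 21 pairs of members had a Spearman rho of log2(CPM + 1) above 0, with a median of 0.30, compared with 0.053 over all pairs of the genes tested. The pair of Csrp3 and Fhl1 reached 0.5 (rho 0.51), and 0.122% of all gene pairs did so. Over the 51 fast 2A cells, 18 of 21 pairs were above 0 with a median of 0.25 against 0.028 for all gene pairs, and the pairs of Ankrd2 with Csrp3 (0.65) and Csrp3 with Fhl1 (0.60) reached 0.5, against 0.117% of all pairs. The share of all gene pairs above 0 was not computed, and the pairs were not matched for count level. These correlations are descriptions, since the cells share a preparation, 2 lanes and 8 plates.

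**Figure D3:**
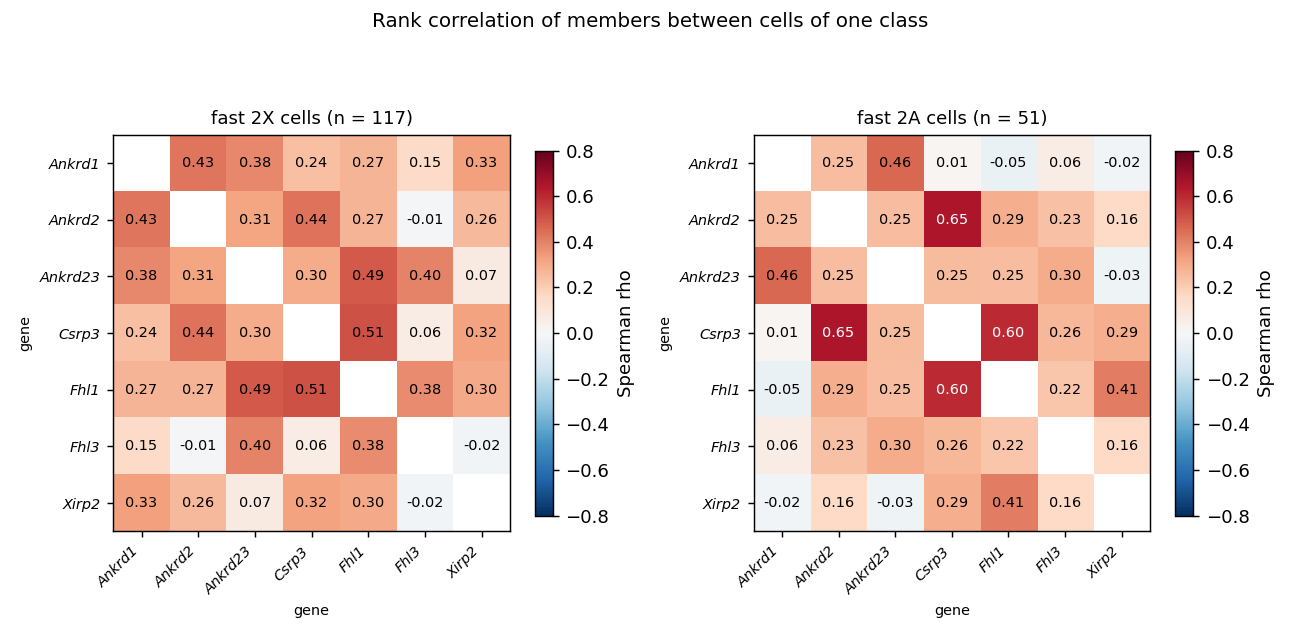
Spearman rho between each pair of members (both axes list the members) over fast 2X cells on the left and fast 2A cells on the right, with the value in each square. Csrp3 with Fhl1 was 0.51 and 0.60, and Ankrd2 with Csrp3 was 0.44 and 0.65.

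Among the ankyrin repeat genes, Ankrd1 had a rho of 0.43 with Ankrd2 and 0.38 with Ankrd23 in fast 2X cells, and 0.25 and 0.46 in fast 2A cells. Ankrd1 was less related to the LIM and Xin genes, at 0.15 to 0.33 in fast 2X cells and -0.05 to 0.06 in fast 2A cells. Of the LIM genes, Fhl1 was related to Ankrd23 (0.49) and Fhl3 (0.38) in fast 2X cells, whereas Csrp3 with Fhl3 was 0.06. Fhl3 with Ankrd2 was -0.01 and Fhl3 with Xirp2 was -0.02. The rho between members thus ranged from -0.02 to 0.51 in fast 2X cells, with the lowest values in pairs of Fhl3.

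The values differed between the lanes, which held different cells and plates. Csrp3 with Fhl1 was 0.36 over the 59 fast 2X cells of lane 1 and 0.70 over the 58 of lane 2, and Ankrd1 with Ankrd2 was 0.35 and 0.51. On lane 1 none of the 21 pairs reached 0.5, and on lane 2 there were 5. The share of all gene pairs at 0.5 was not computed by lane, so these counts have no background. The median depth of fast 2X cells was 195008 counts on lane 1 and 278726 on lane 2. When every cell was thinned to 28825 counts, Csrp3 with Fhl1 was 0.49 and Ankrd1 with Ankrd2 was 0.29. Subtracting the mean of each plate left Csrp3 with Fhl1 at 0.59.

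A few fast 2X cells were low in most members together. The 6 cells with the least Fhl1, from 490 to 1143 CPM, had 178 to 451 CPM of Csrp3 and 199 to 659 CPM of Xirp2, and 5 of them were whole myofibers. They were chosen for their Fhl1 level and their number was set with the values known, so that these values are a description. The next cell, at 1532 CPM of Fhl1, had 745 CPM of Csrp3 and 1477 CPM of Xirp2. In these 6 cells the 5 myofiber markers summed to between 22445 and 33929 CPM, against a median of 114157 CPM in the class, and the 33 markers of other cell types summed to between 1180 and 15031 CPM, against a median of 206 CPM. Without the 10% of cells highest in those markers, the rho of Csrp3 with Fhl1 was 0.43 and no pair of members reached 0.5. By Pearson's r on the same log scale over all fast 2X cells, 8 pairs did. The share of all gene pairs was not computed in either setting, and the part of the 6 cells was not tested.

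For each member, the 3 genes outside the list with the highest rho in fast 2X cells were named. Csrp3 was closest to Lmcd1 (0.55), a LIM protein that modulates calcineurin signalling, to Actn2 (0.52), the Z-disc alpha-actinin, and to the small heat shock protein Hspb6 (0.49), and in fast 2A cells these 3 had 0.73, 0.64 and 0.57. Fhl1 was closest to Myoz2 (0.69), a calcineurin-binding Z-disc protein of slow fibers, to Tpm2 (0.63), a tropomyosin, and to the antisense gene Gm13599 (0.62), with 0.52, 0.14 and 0.32 in fast 2A cells. Of the genes nearest to Csrp3 in fast 2X cells, Lmcd1, Actn2 and Hspb6 were at places 3, 4 and 13 in fast 2A cells. Of those nearest to Fhl1, Myoz2, Gm13599 and Tpm2 were at places 11, 207 and 1573. Fhl3 was closest to Col14a1 (0.62), Oaz1 (0.61) and Gm21865 (0.59), at 0.19, 0.31 and 0.23 in fast 2A cells.

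Xirp2 had its highest values with Ttn (0.73), the gene of titin, Neb (0.70), that of nebulin, and Cmya5 (0.68), that of myospryn, a costameric protein. In fast 2A cells these were 0.76, 0.70 and 0.52, and Ttn held the first place of all genes there as well. Xirp2 also had a rho of 0.77 and 0.79 in fast 2X and fast 2A cells with the summed 24 titin and Z-disc partner genes, a sum dominated by Ttn (56993 CPM in fast 2X cells). The highest rho of any other member with that sum was 0.32, for Fhl1 in fast 2A cells. These are long genes, at 80613 bases for Xirp2, 278568 for Ttn and 241828 for Neb from start to end, and the part of transcript length was not tested.

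Ankrd2 was closest to Flnc (0.51), the muscle filamin of the Z-disc, to Myo18b (0.50), a sarcomeric myosin, and to Twf2 (0.50), an actin-monomer-binding protein, at 0.55, 0.32 and 0.51 in fast 2A cells. Ankrd23 was closest to Gm21865 (0.63), a predicted gene on chromosome Y, to Cs (0.62), the citrate synthase of the tricarboxylic acid cycle, and to Col14a1 (0.62), at 0.44, 0.36 and 0.52 in fast 2A cells. The ankyrin repeat genes therefore did not share a nearest gene apart from Flnc, which was also the nearest to Ankrd1.

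Ankrd1 had a rho of 0.58 with Flnc, 0.57 with Cx3cr1 and 0.51 with Btg2, an antiproliferative early response gene, and 0.27, 0.28 and 0.11 in fast 2A cells. Cx3cr1 is known as the fractalkine receptor of microglia and other myeloid cells. Here it was counted in all 117 fast 2X cells, from 49.9 to 1409 CPM with a median of 402 CPM, and in all 51 fast 2A cells, from 198 to 1089 CPM with a median of 505 CPM. Over the same cells the immune markers Ptprc, Cd68, Adgre1 and Lyz2 each had 1.99 to 4.75 CPM, and their rho with Cx3cr1 in fast 2X cells was between -0.16 and 0.02. Counts listed under Cx3cr1 come from a span that includes the whole of Xirp1 on the same strand, and whether reads of Xirp1 are among them cannot be told apart here. Besides Ankrd1, the Cx3cr1 counts had a rho of 0.38 with Ankrd2 in fast 2X cells, and of 0.59 with Ankrd2 and 0.49 with Csrp3 in fast 2A cells.

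**Figure D4:**
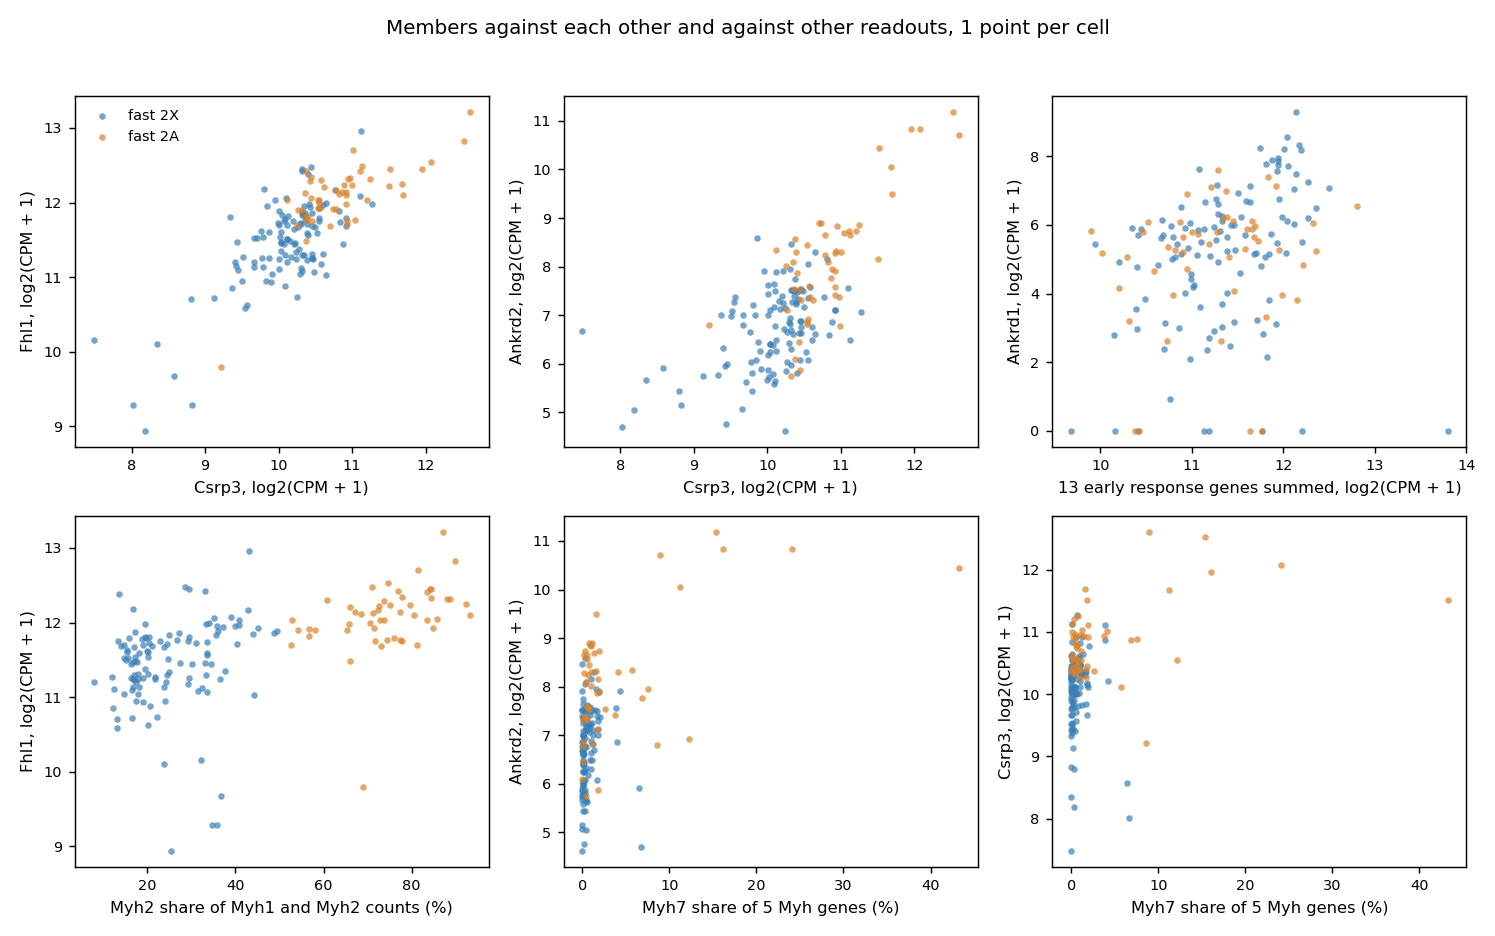
Members against each other and against other readouts in fast 2X (blue) and fast 2A (orange) cells, 1 point per cell; gene axes are log2(CPM + 1), and the other axes are the summed level of 13 early response genes on the same log scale and the shares of Myh2 (of Myh1 and Myh2) and Myh7 (of 5 Myh genes) in percent. The fast 2A cells with Ankrd2 above 1000 CPM also lie at the top for Csrp3 and hold 8.90% or more Myh7.

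The members were also set against gene lists of related pathways. Of the titin and Z-disc partners, 22 of 24 had enough counts, of which 2 were higher in fast 2A cells, 1 was lower and the median log2 ratio was 0.16. The higher genes were Lmcd1 (0.95) and Myot (0.64), the gene of the Z-disc protein myotilin, and the next was Synpo2l (0.39). The lower gene was Ky (-0.63), a Z-disc protein needed for normal muscle growth, followed by Capn3 (-0.36), a titin-bound protease, and Pdlim3 (-0.26). Over all genes tested the median was -0.09, with 3.82% higher and 10.7% lower, and these values are the background for the lists below as well. Lmcd1, the nearest gene to Csrp3, was the highest of the titin and Z-disc partners.

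Of the genes of the YAP-TEAD and SRF pathways, 13 of 17 had enough counts, 1 was higher, 1 was lower and the median was -0.01. Cyr61 (0.53) and Ctgf (-0.54), which are both known targets of YAP, stood at opposite ends, at 24.4 against 16.98 CPM and 32.7 against 47.4 CPM in fast 2A and fast 2X cells. Abra (0.36), an actin-binding activator of SRF signalling, and Tead1 (0.26) were next above, and Vcl (-0.42) and Mkl2 (-0.31) next below. Their summed level had a rho with the members of -0.06 to 0.24 in fast 2X cells.

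Genes of the early response after isolation, which tissue digestion is known to induce, were tested in 12 of 13 cases. None was higher and 1 was lower in fast 2A cells (Fosb, at 27.4 against 54.8 CPM), with a median of -0.17. Next below were Hspa1b (-0.48) and Atf3 (-0.34), and the highest were Zfp36 (0.42), Btg2 (0.20) and Junb (0.15). The summed level of these genes per cell had a rho with Ankrd1 of 0.43 in fast 2X and 0.18 in fast 2A cells, with Ankrd2 of 0.30 in both, and with Ankrd23 of 0.30 and 0.35. With Csrp3 and Xirp2 it was between -0.01 and 0.08. Gene by gene, the rho with Ankrd1 in fast 2X cells ran from 0.51 (Btg2), 0.47 (Egr1) and 0.41 (Junb) down to 0.12 (Dusp1), -0.04 (Hspa1a) and -0.10 (Hspa1b), and in fast 2A cells from -0.07 to 0.30. The part of the preparation in its level was not tested.

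Of the denervation and injury genes, 7 of 10 had enough counts, 1 was higher (Mt1, a metallothionein, 0.53) and none was lower, with a median of 0.27. Next were Cdkn1a (0.43) and Runx1 (0.34), and at the lower end stood Chrna1 (-0.31), Mt2 (0.15) and Ncam1 (0.24). Their summed level had a rho of 0.33 with Ankrd1 and 0.28 with Ankrd2 in fast 2X cells. The other members were between -0.09 and 0.20.

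The slow and fast programme lists describe the classes themselves. All 8 slow genes tested were higher in fast 2A cells, from Casq2 (0.96), Atp2a2 (1.20) and Myoz2 (1.51) to Myl3 (2.90), Myl2 (3.15) and Tnnt1 (3.51), with a median of 2.31. Of the 8 fast genes, 5 were lower, with Mybpc2 (-2.13), Actn3 (-1.74) and Pvalb (-1.61) at the lower end and Tnnc2 (-0.28), Tnni2 (-0.20) and Tnnt3 (-0.18) at the upper end. The median was -0.84. Within a class, the summed slow genes had a rho of 0.52 with Csrp3 and 0.48 with Ankrd2 in fast 2X cells, and of 0.48 and 0.56 in fast 2A cells. For Fhl1 these were 0.29 and 0.38, and for Ankrd1 0.10 and -0.22. The 4 members that were higher in fast 2A cells had the 4 highest values in either class, the lowest of them being those of Xirp2 (0.16 and 0.24).

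Lastly, the 592 excluded cells were set against the 171 kept cells. All 7 members were lower in the excluded cells, by log2 ratios from -1.30 for Ankrd2 to -1.92 for Ankrd1, as were 75.4% of all genes, whereas 4.44% were higher. The excluded cells had a median of 48.0% mitochondrial counts, against 5.96% in kept cells, which lowers the CPM of every other gene. With mitochondrial counts left out of the totals, 3 members were lower, namely Ankrd1 (-0.94), Xirp2 (-0.75) and Fhl1 (-0.62), and 4 were between -0.31 and -0.40, while 18.3% of all genes were lower and 24.2% were higher. On that scale Ankrd1 went from 71.1 CPM in kept to 37.1 CPM in excluded cells and Xirp2 from 2996 to 1776 CPM. The median depth of the excluded cells was 16032 counts, and its part in these values was not tested.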

How the data were processed

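Single FDB myofibers and fragments were sequenced by mcSCRB-seq. The authors mapped reads to GRCm38 (mm10) plus the spike-in references and obtained UMI counts for each gene from zUMIs, which uses STAR (2.5.4b, as in the submitters' processing notes) and featureCounts. Whether intronic reads and the strand were used in the deposited counts is not given in the sources used here. The deposited table holds whole UMI counts per gene and cell; its columns also carry 2 rows of percentages, so the unit was recorded as that of estimated counts, which the authors made with zUMIs, and only the gene rows were used, without rounding. Of its rows, 10 of description and 4 with a duplicated symbol were left out, and no separate step was run for spike-ins.

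Counts were divided by the total gene counts of a cell or group (CPM). Cells were filtered on more than 5000 genes and less than 20% mt- counts and classed by their highest Myh gene; no doublet caller was run, as each well was meant to hold 1 myofiber. Genes with at least 500 summed counts in kept cells, without the 5 Myh genes, were compared (8741 genes). Levels have exact Poisson limits, shares exact Clopper-Pearson limits and ratios exact conditional binomial limits at 95%; all cover counting error only. Correlations are Spearman's rho of log2(CPM + 1) with a pseudocount of 1 CPM and carry no p. The ratio and correlation steps were tested on simulated data. The members, lists and limits were chosen with earlier results of these data known. All members were named, as were the 3 nearest genes of each in fast 2X cells and the 3 highest and 3 lowest ratios of each list.

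Gene positions came from GENCODE M21 and promoter windows from RefSeq (GRCm38.p6). Alternatives for scaling used size factors from edgeR 4.0.16 (TMM) and DESeq2 1.42.0; no count test was run, as cells of 1 sample are not replicates. Python 3.11.15, numpy 2.4.6, pandas 2.3.3 and scipy 1.17.1 were used.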

Additional observations from a re-analysis of the deposited data

How the results depend on the processing

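The number of members past a log2 ratio of 0.5 between fast 2A and fast 2X cells was 5 and stayed at 4 or 5 under every alternative run, including other size factors, thinning, either lane alone and each plate left out. Ankrd2, Csrp3, Fhl1 and Xirp2 stayed past it in 21 of 21 alternatives each, with ranges of 1.34 to 2.09, 0.59 to 0.92, 0.59 to 0.70 and 0.57 to 0.78. Ankrd1 was past it in 13 of 21, from -0.96 on lane 1 to -0.05 by the median over cells. With 100 summed counts as the minimum in place of 500, 5.71% of genes were higher and 18.0% were lower. The number of member pairs with a rho of at least 0.5 in fast 2X cells, 1 in the main analysis, was 0 after thinning, 0 without the 10% of cells highest in non-myofiber markers, 8 by Pearson's r, 4 on residuals after depth, mt- share, genes detected and lane, 2 on residuals after the Myh2 share and 2 in fast 2A cells; without a lane it was 0 to 5. The cause of these moves was not tested. The share of all gene pairs at 0.5 was computed only for the main analysis and for fast 2A cells. The number of members past the criterion in excluded against kept cells fell from 7 to 3 without mt- counts, where the totals lose the mitochondrial counts. No paired analysis was possible because the labels give 1 group, whose 2 samples are lanes. Counting error limits Ankrd1 most, at a median of 9 counts per kept cell.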

Other observations

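The excluded fragments of the pseudo-biopsy were set beside the excluded whole myofibers. The same comparison was not made over all genes, so the levels of the members are given as values only. With mitochondrial counts left out of the totals, the 90 excluded fragments had 174 CPM of Ankrd2 (95% counting limits 155 to 196) and the 502 excluded whole myofibers 171 CPM (160 to 182). Csrp3 had 1105 CPM (1055 to 1158) and 1110 CPM (1083 to 1138), and Fhl1 had 2226 CPM (2155 to 2300) and 2327 CPM (2288 to 2367). Ankrd23 and Xirp2 were higher in the fragments, with 1332 CPM (1277 to 1389) against 1056 CPM (1030 to 1083) and 2003 CPM (1935 to 2073) against 1711 CPM (1678 to 1746). Ankrd1, which is known to rise after muscle injury, had 31.7 CPM (23.7 to 41.6) in the fragments and 38.7 CPM (33.8 to 44.1) in the whole myofibers, from 52 and 223 counts. The fragments had a median of 29739 counts and these whole myofibers 14742, and all limits cover counting error only.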
